A study of Rattus norvegicus with 18 samples.

Results

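Hippocampal transcript levels were compared between rats of an alcohol diet and rats of a control diet, in 12 of the 18 arrays of a study of learning after alcohol exposure before birth. The arrays were chosen by the diet named in each sample's description, and training state was kept as a factor. The alcohol diet was represented by 4 trained and 4 naive samples, and the control diet by 2 trained and 2 naive samples. Trained samples came from a procedure that the labels abbreviate as CFC, and naive samples had no such training. The remaining 6 arrays were from an isocaloric diet, and they enter here through the shared estimate of spread and as values set beside the main ones. The labels state no alcohol dose or timing, and no strain, age or litter of the animals. They also leave unsaid whether the samples of a group were different animals. The p-values therefore rest on the spread among these samples, some of which may be technical. Each sample was total RNA on 1 Affymetrix array, which reports an intensity for each probe set, a group of short probes against the 3′ part of a transcript.

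The hippocampus is a cortical structure needed for forming memories of places and contexts, and it is among the brain regions most studied after fetal alcohol exposure. Its pyramidal and granule neurons release glutamate, its interneurons release GABA, and its capillaries are lined by endothelial cells whose tight junctions form the blood-brain barrier. Expression of hippocampal markers was checked first. Averaged over all arrays, the dentate granule cell marker Prox1 was at a log2 level of 7.86, the CA1 marker Wfs1 at 9.95 and the CA3 marker Bok at 8.78. The 4 tested thalamic markers had a mean level of 6.202 to 6.67 over the alcohol arrays and the 5 tested striatal and septal markers 7.12 to 7.45, against 6.88 to 7.15 for the 4 tested dentate markers. Levels of different genes depend on their probes, so these means do not show how much tissue from neighbouring regions the samples held.

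Control arrays differed from the alcohol arrays in array-wide measures, and the control naive arrays differed from each other. On the first principal component, which held 24.6% of the variance, their scores were 2.04 and 33.6 (naive replicates 1 and 2) and 15.3 and 15.4 (trained replicates 1 and 2). The 8 alcohol arrays lay between -12.9 and -3.06 (difference of means exact permutation p = 0.00404, two-sided, adjusted p = 0.0242 over 6 array measures). The ratio of 3′ to 5′ signal for actin, a sign of RNA or target quality, was 0.40 (SD 0.161, n = 8) on the log2 scale with alcohol and 0.64 (SD 0.0943, n = 4) with control (exact permutation adjusted p = 0.0485). The same ratio for hexokinase was 0.99 (SD 0.22) against 1.49 (SD 0.18), with an exact permutation adjusted p of 0.0364. For Gapdh the ratios were 0.258 and 0.259 (exact permutation adjusted p = 0.958). Processing notes name MAS5, the Affymetrix summary algorithm, for control naive replicate 1 and control trained replicate 2, and these arrays also differ in number format: 100% of their values have 6 digits or fewer, against 3.10% to 3.67% on the other arrays. The comparison was therefore also made against each pair of control arrays, which each hold 1 naive and 1 trained sample. Summed signal of choroid plexus and ependymal markers, a tissue next to the hippocampus, was 11440 on control trained replicate 1 and 1081 to 1376 on the other control arrays. On the alcohol arrays it ran from 997 to 12101 with a median of 1184.

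**Figure D1:**
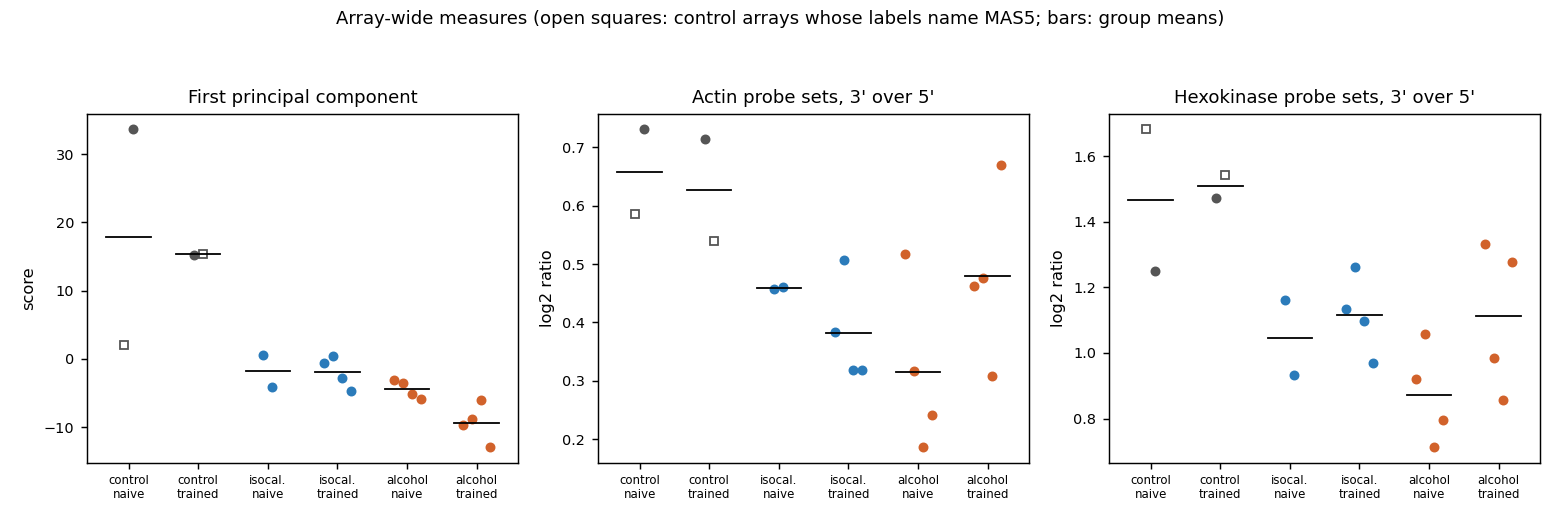
Scores of the first principal component (left) and log2 ratios of 3′ to 5′ signal for actin (middle) and hexokinase (right), 1 point per array, by diet and training. Bars are group means and open squares are the 2 control arrays for which processing notes name MAS5. The control arrays, from 2.04 to 33.6 on the component, lie above all alcohol arrays.

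With alcohol, averaged over the training states, 1075 of 9520 tested probe sets were higher (11.3%) and 820 were lower (8.61%), at an adjusted p under 0.05 in limma. They covered 846 and 667 genes. With median centring in place of the deposited scaling, 46.4% of the calls were higher with alcohol, against 56.7% here. Among them 44 were higher and 1 was lower by more than 2-fold. On 379 probe sets (3.98%) each alcohol array lay above each control array, and on 228 (2.39%) each lay below. With 1 probe set per gene, 636 of 6938 genes were higher (9.17%) and 623 were lower (8.98%), around a median log2 difference of -0.01.

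The choice of control arrays changed these counts. Against the control pair whose notes name MAS5, 203 probe sets were higher (2.13%) and 60 lower (0.63%), or per gene 100 (1.44%) and 42 (0.605%). Against the other pair, 1429 were higher (15%) and 1036 lower (10.9%). Of the 1895 calls, 254 remained against the pair named MAS5, 1588 against the other pair and 227 against each of the pairs, of which 176 were higher and 51 lower. None of the 1895 had the opposite sign against either pair. The calls were selected on a difference built from both pairs, so this agreement of sign largely follows from the selection. Without control naive replicate 2 the count was 580, and 558 of these were among the 1895. Each pair leaves 1 array in each control group, which is assumed to vary like the other groups.

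Most tested genes of a brain endothelial list were higher with alcohol. Of 37 brain endothelial genes listed, 28 were on the array and 15 passed the filter on low values. Among these, 11 rose, 0 fell and 4 did not pass the test, and the median log2 difference was 0.44. Against the control pair named MAS5 the median was 0.47 with 6 higher, and against the other pair it was 0.42 with 10 higher. Many of the genes came from earlier results on these samples, so their count is a description. Over all genes 9.17% rose and 8.98% fell, and counts of this and later lists are read beside these shares. With the actin ratio as a covariate, 183 of 9520 probe sets were higher and 132 lower. In bulk tissue, more cells of a type and more RNA per cell cannot be told apart, and neither can fewer cells and less RNA per cell. Promoter sequences were taken for Cldn5, Cxcl12 and Flt1, each of which had a probe set that was higher with alcohol. For Cxcl12 this held on its dimmer probe sets only. Its brightest probe set differed by -0.01 (adjusted p = 0.951 in limma). Of the 37 genes, 23 had an entry in the promoter table. The 250 bases before the start of the gene are from RefSeq, build GRCr8. Capitals mark matches on either strand to 3 motifs that do not overlap here. They are the GC box (GGGCGG), the sequence CCAAT and the promoter element known as the TATA box (TATAAA).
Cldn5: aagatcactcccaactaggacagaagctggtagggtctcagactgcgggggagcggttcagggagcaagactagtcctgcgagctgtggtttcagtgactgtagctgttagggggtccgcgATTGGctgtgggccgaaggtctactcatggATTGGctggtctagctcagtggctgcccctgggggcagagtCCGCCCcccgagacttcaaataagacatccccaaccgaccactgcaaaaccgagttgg
Cxcl12: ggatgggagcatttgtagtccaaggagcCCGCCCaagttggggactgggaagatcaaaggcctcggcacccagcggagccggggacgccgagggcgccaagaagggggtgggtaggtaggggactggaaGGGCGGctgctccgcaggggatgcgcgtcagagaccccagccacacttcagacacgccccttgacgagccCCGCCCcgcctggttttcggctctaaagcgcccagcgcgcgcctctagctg
Flt1: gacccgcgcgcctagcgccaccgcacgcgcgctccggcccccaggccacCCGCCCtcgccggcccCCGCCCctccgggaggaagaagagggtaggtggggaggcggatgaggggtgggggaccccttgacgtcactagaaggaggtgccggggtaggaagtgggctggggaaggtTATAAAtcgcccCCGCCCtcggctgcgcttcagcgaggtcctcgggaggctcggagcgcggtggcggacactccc
The Cldn5 window lies on the minus strand at chr11:95718599-95718848, the Cxcl12 window on the plus strand at chr4:152060531-152060780 and the Flt1 window on the plus strand at chr12:12333180-12333429. A GC box stood once in the Cldn5 window and 3 times in each of the others, and 30.5% of 33469 windows of this length hold one. CCAAT stood in the Cldn5 window alone of these, 2 times, and 34% of all windows hold it. TATAAA stood in the Flt1 window alone of these, once, against 12.9% of all windows. Arrays of transcripts measure nothing at a promoter, and a match is a description of letters.

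Cldn5 encodes claudin-5, the main tight-junction protein of brain endothelium. Its log2 levels were 6.90 and 6.87 on the control naive arrays and 6.71 and 6.998 on the control trained arrays. The 8 alcohol arrays ran from 7.91 to 8.399 with a median of 8.28. All alcohol arrays lay above all control arrays, and the difference was 1.39 (SE 0.08, adjusted p = 9.9e-09). It was 1.31 against the control pair named MAS5 and 1.47 against the other pair, and 1.41 in naive and 1.37 in trained samples.

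Cxcl12, a chemokine that attracts cells bearing its receptor Cxcr4, was at 5.91 and 5.64 on the control naive arrays and at 6.14 and 6.28 on the control trained arrays. Alcohol arrays lay between 7.12 and 7.51, apart from all controls, and the difference was 1.33 (SE 0.08, adjusted p = 1.52e-08). Another probe set of Cxcl12 was higher by 0.91 (adjusted p = 0.000875). The remaining one was the brightest, with a mean level of 8.75 against 7.27 and 7.07, and differed by -0.01 (adjusted p = 0.951). Esam, an adhesion molecule of endothelial junctions, was at 5.93, 5.37, 5.68 and 5.75 on the control arrays and at 6.59 to 6.91 with alcohol. These groups did not overlap, with a difference of 1.07 (SE 0.11, adjusted p = 9.67e-06). Adgrf5, an adhesion receptor found in endothelium, was at 5.07 to 5.40 on the controls and at 5.78 to 6.35 with alcohol (difference 0.99, SE 0.12, adjusted p = 4.16e-05). Another Adgrf5 probe set was at 0.30 (adjusted p = 0.0914).

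Flt1, a receptor for VEGF, was at 5.06 and 4.99 on the control naive arrays and at 5.74 and 4.86 on the control trained arrays. Alcohol arrays lay between 5.88 and 6.02 (difference 0.79, SE 0.12, adjusted p = 0.000571). The control array nearest to them was trained replicate 1, the control with the high choroid plexus signal. Transporters of the barrier were also higher: the glucose transporter Slc2a1 by 0.44 (SE 0.09, adjusted p = 0.00371), the thyroid hormone transporter Slco1c1 by 0.48 (SE 0.10, adjusted p = 0.00469) and the amino acid transporter Slc7a5 by 0.58 (SE 0.10, adjusted p = 0.00136). Podxl (0.59), Egfl7 (0.52), the lipid transporter Mfsd2a (0.44), Slco1a4 (0.41) and Emcn (0.29) passed the test over all 4 controls and did not pass against the pair named MAS5. Ramp2 was at 0.21 (adjusted p = 0.0524), the transferrin receptor Tfrc at 0.07, the tight-junction protein Ocln at 0.05 and the monocarboxylate transporter Slc16a1 at -0.03. With the actin ratio as a covariate, 5 of the 15 genes rose and the median was 0.39.

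Pericyte and smooth muscle genes had 5 tested members, of which 2 rose: Rgs5 by 0.60 (SE 0.12, adjusted p = 0.00262) and Mcam by 0.52 (SE 0.16, adjusted p = 0.0323). Of 16 genes of junctions and basement membrane, 3 rose and 1 fell, with a median of 0.05. Fibronectin (Fn1) rose by 0.81 (SE 0.14, adjusted p = 0.00128), and the collagen chains Col4a1 and Col4a2 rose by 0.42 and 0.45. Col15a1, another basement membrane collagen, fell by 0.74 (SE 0.20, adjusted p = 0.0177), a call lost against each control pair. The calls of Mcam, Col4a1 and Col4a2 were lost against the pair named MAS5. With the actin ratio as a covariate, 0 genes of either list were called. Of 16 tested genes of VEGF, angiopoietin, chemokine and TGF-beta signals, 1 rose and 2 fell, with a median of 0.02. Summed signal of the endothelial list was 2583 to 2869 on the control arrays and 3418 to 3639 on the alcohol arrays. Many genes of that list came from earlier results on these samples, so the lack of overlap is a description. Haemoglobin beta (Hbb), a marker of red cells left in vessels, was the 1 tested gene of 9 blood markers. It fell by 0.56 (SE 0.13, adjusted p = 0.00813), by 0.812 in naive samples, and was at -0.313 without passing in trained samples. Its difference was -0.425 against the pair named MAS5, and the call was lost there and without control naive replicate 2. It was also lost with the actin or the hexokinase ratio as a covariate. Whether blood left in the samples differed was not tested.

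Presynaptic genes were higher in part. Of 33 tested genes of the synaptic vesicle cycle, 11 rose, 0 fell and 22 did not pass, with a median of 0.18. Rab3a, the GTPase that ties vesicles to the release site, was at 9.97, 9.44, 9.70 and 9.79 on the control arrays and at 10.25 to 10.55 with alcohol. The groups did not overlap, and the difference was 0.63 (SE 0.09, adjusted p = 0.000161). Sh3gl2 (endophilin A1), which acts in vesicle endocytosis, rose by 0.65 (SE 0.09, adjusted p = 0.000167). The vesicle SNARE protein Vamp2 rose by 0.37 (SE 0.07, adjusted p = 0.00156) and the synaptotagmin Syt11 by 0.71 (SE 0.14, adjusted p = 0.00268). Syn1, Syn2, Syp, Cplx2, Bsn, Pclo and Slc17a7 also rose, by 0.18 to 0.71. Snap25 (0.26, adjusted p = 0.0971) and Syt4 (-0.19, adjusted p = 0.0882) did not pass. Against the control pair named MAS5 the median was 0.06 with 3 genes higher (Rab3a, Sh3gl2 and Pclo), and against the other pair it was 0.24 with 14 higher. With the actin ratio as a covariate 3 rose and 1 fell, with a median of 0.17.

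Adhesion molecules that span the synaptic cleft gave 10 higher and 0 lower of 22 tested, with a median of 0.31. Clstn3 (calsyntenin-3), a postsynaptic adhesion protein, was at 7.48 and 7.03 on the control naive arrays and at 7.48 and 7.32 on the control trained arrays. Alcohol arrays lay at 7.84 to 8.17, above all of them (difference 0.70, SE 0.09, adjusted p = 0.000117). The neuroligins Nlgn3 (0.69, adjusted p = 0.00195, and 2.12 on a dimmer probe set) and Nlgn2 (0.42, adjusted p = 0.00969) rose, and Nlgn1 was at -0.22 (adjusted p = 0.0962). N-cadherin (Cdh2) rose by 0.29 and the axonal protein Cntnap1 by 0.47. The cadherin Cdh22 was at 9.57 on control naive replicate 1 and at 7.23 to 7.54 on the other controls, against 8.47 to 9.91 with alcohol, so the groups overlapped through 1 array (difference 1.30, SE 0.31, adjusted p = 0.00759). The median was 0.14 against the pair named MAS5, where Clstn3 and Nlgn3 were called, and 0.46 against the other. With the actin covariate 1 gene rose and the median was 0.25.

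Glutamate receptors and their scaffolds rose in part. Of 10 ionotropic receptor genes tested, 3 rose and 0 fell, with a median of 0.16. Grin1, the subunit present in every NMDA receptor, was at 9.19 and 8.28 on the control naive arrays and at 8.56 and 8.59 on the control trained arrays. Alcohol arrays ran from 9.24 to 9.50, just above the highest control (difference 0.69, SE 0.11, adjusted p = 0.000688). The kainate receptor subunit Grik5 rose by 0.46 (adjusted p = 0.0117). The AMPA receptor subunit Gria1 rose by 0.27 (adjusted p = 0.0451), with controls at 8.04, 7.42, 8.12 and 8.11 and alcohol arrays at 8.04 to 8.42. Without control naive replicate 2, the low one, it was 0.12 (adjusted p = 0.396). Gria2 was at -0.18 (adjusted p = 0.0957) on its brighter probe set and at -0.23 (adjusted p = 0.034) on another. Grin2b was at 0.48 (adjusted p = 0.0728) and Grin2a at 0.25 (adjusted p = 0.29).

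Among metabotropic receptors and postsynaptic scaffolds, 8 of 28 rose and 1 fell, with a median of 0.24. The scaffolds Shank3 (0.59, SE 0.11, adjusted p = 0.00142) and Homer3 (0.71, SE 0.12, adjusted p = 0.000931) rose, as did Kalrn (0.46), an exchange factor that shapes dendritic spines. The AMPA receptor auxiliary subunits Cacng3 and Cacng2 rose by 0.44 and 0.34, and the presynaptic receptor Grm2 by 0.63. Dlg1, a membrane-associated scaffold, fell by 0.19 (adjusted p = 0.0307). Of these, Shank3 and Homer3 were called against the pair named MAS5. With the actin covariate 1 gene of this list rose and 0 fell, and 1 ionotropic receptor gene rose.

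Ion channel genes were also higher in part. Of 19 calcium, sodium and HCN channel genes 6 rose and 0 fell, and of 27 potassium channel genes 7 rose and 1 fell. Scn2b, an auxiliary sodium channel subunit, was at 4.96, 5.46, 5.44 and 5.55 on the control arrays and at 6.06 to 6.84 with alcohol, with no overlap (difference 1.23, SE 0.15, adjusted p = 5.42e-05). Kcna1, a voltage-gated potassium channel of axons, was at 8.10 and 7.11 on the control naive arrays and at 7.67 and 7.72 on the control trained arrays. Alcohol arrays lay at 7.99 to 8.73 and overlapped control naive replicate 1 (difference 0.83, SE 0.13, adjusted p = 0.000479). The calcium channel subunits Cacna1d (0.70), Cacnb1 (0.92), Cacnb3 (0.37), Cacna1a (0.60) and Cacna1g (0.85) rose over all 4 controls, and none of these 5 passed against the pair named MAS5. Kcnma1, the large-conductance calcium-activated channel on which ethanol acts directly, fell by 0.42 (SE 0.09, adjusted p = 0.00348). The median of the calcium, sodium and HCN list was 0.29 over all controls, 0.09 against the pair named MAS5 and 0.48 against the other pair. With the actin covariate it was 0.25 with 1 gene higher, and 2 potassium channel genes rose and 1 fell.

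**Figure D2:**
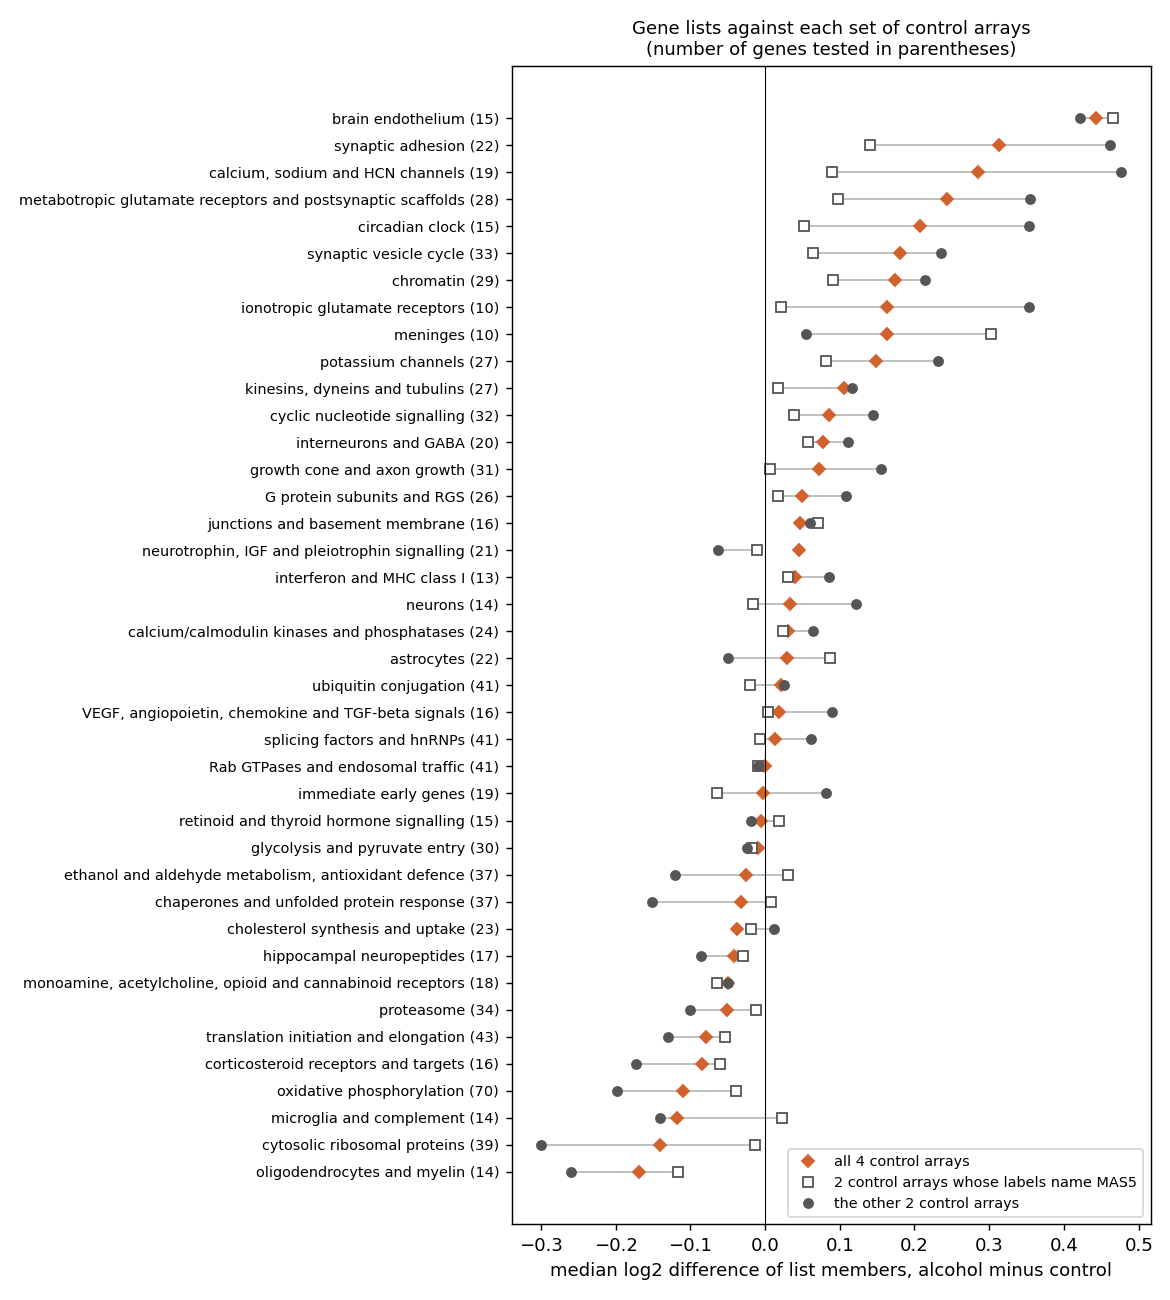
Median log2 difference, alcohol minus control, of the tested members of each gene list with at least 10 of them. Diamonds use all 4 control arrays, open squares the 2 for which processing notes name MAS5 and filled circles the other 2. The endothelial list, many of whose genes came from earlier results on these samples, stays between 0.42 and 0.47. The synaptic, channel and ribosomal lists lie nearer to 0 against the pair named MAS5.

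Genes of interneurons and of GABA signalling, receptor subunits among them, gave a mixed picture. Of 20 genes, 2 rose (Gad2 by 0.47, adjusted p = 0.0111, and the GABA-B receptor subunit Gabbr2 by 0.47, adjusted p = 0.00391) and 0 fell. Over all genes these shares were 9.17% and 8.98%. Gad1, which makes GABA from glutamate, was at 6.41, 6.37, 6.43 and 6.52 on the control arrays and at 7.39 to 7.83 with alcohol on the probe set that changed most. Its groups lay far apart (difference 1.16, SE 0.10, adjusted p = 1.82e-06). A brighter probe set of Gad1 differed by 0.13 (adjusted p = 0.124), so the gene as a whole did not show that size. The interneuron markers Sst (-0.15), Npy (-0.07), Pvalb (-0.04), Vip (-0.03) and Reln (-0.04) did not pass. Of 14 general neuronal markers 2 rose and 0 fell, with a median of 0.03 that turned to -0.00 with median centring.

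Several signalling and metabolic enzymes were among the clearest higher genes. Pfkm, a phosphofructokinase of glycolysis, was at 8.45, 8.17, 7.74 and 8.10 on the control arrays and at 8.87 to 9.06 with alcohol (difference 0.85, SE 0.08, adjusted p = 1.82e-06). Its other probe set was at 0.11 (adjusted p = 0.181). Pik3r2, a regulatory subunit of PI3 kinase, was at 7.97, 7.84, 7.40 and 7.31 on the controls and at 8.25 to 8.67 with alcohol (difference 0.83, SE 0.07, adjusted p = 1.82e-06). A brighter Pik3r2 probe set was at 0.17 (adjusted p = 0.0851). Atp2b2, a calcium pump of the plasma membrane, rose by 1.07 (SE 0.11), and its other probe set rose by 0.29 (adjusted p = 0.0158). Hapln2, a link protein of the matrix at nodes of Ranvier, rose by 1.08 (SE 0.11) and the phosphatase subunit Ppp2r2c by 0.81 (SE 0.09). Ptms (parathymosin), a small acidic nuclear protein, was at 9.44, 9.70, 9.62 and 9.47 on the controls and at 10.19 to 10.71 with alcohol (difference 0.89, SE 0.10, adjusted p = 2.61e-05). Agap3, Ssbp4 and Arf3, the last a GTPase of the Golgi, rose by 1.10, 0.62 and 0.77. A brighter Arf3 probe set was at 0.11 (adjusted p = 0.203), and other Agap3 probe sets were at 0.82 (adjusted p = 0.00148) and 0.44 (adjusted p = 0.0851). On the probe set first given for each of these genes the alcohol arrays did not overlap the control arrays, while on the other probe sets of Pfkm, Pik3r2, Atp2b2, Agap3 and Arf3 they did.

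Chromatin genes gave 8 higher and 0 lower of 29, with a median of 0.17. The linker histone H1f10 was at 4.75, 6.07, 4.67 and 4.65 on the controls and at 6.43 to 7.46 with alcohol (difference 2.05, SE 0.30, adjusted p = 0.000312). The histone methyltransferases Ehmt2 and Kmt2a rose by 0.41 and 0.38, the acetyltransferase Crebbp by 0.37 and the deacetylase Hdac4 by 0.51. Clock genes gave 5 higher and 0 lower of 15: Tef (0.65), Dbp (0.38), Bhlhe40 (0.43), Csnk1e (0.62) and Csnk1d (0.30). Against the pair named MAS5, 2 chromatin genes (H1f10 and Ehmt2) and 0 clock genes were called in that limma fit. With the actin covariate 1 chromatin gene and 0 clock genes were called, and the medians were 0.09 and 0.04. No hour of tissue collection is stated in the labels.

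The clearest lower genes had varied roles. Kif5b, the heavy chain of the motor that carries cargo along axons, was at 8.39 and 8.97 on the control naive arrays and at 8.86 and 8.72 on the control trained arrays. Alcohol arrays lay at 7.63 to 8.28, below all of them (difference -0.76, SE 0.11, adjusted p = 0.000312). Of 27 tested genes of kinesins, dyneins and tubulins, 6 rose and 2 fell, with a median of 0.11. Dnaja1, a co-chaperone of Hsp70, was at 9.81, 10.13, 9.94 and 10.01 on the controls and at 9.39 to 9.64 with alcohol (difference -0.45, SE 0.06, adjusted p = 0.000247). Another Dnaja1 probe set was at -0.11 (adjusted p = 0.287), with overlapping arrays. Rab5c, a GTPase of early endosomes, fell by 0.75 (SE 0.11, adjusted p = 0.000312) and Tbca, a tubulin-folding cofactor, by 0.48 (SE 0.08, adjusted p = 0.000704). Neither gene's groups overlapped. Other falls without overlap were Marf1 (-0.72), Ociad1 (-0.64), Chtf8 (-0.94), S100a3 (-0.59), the fatty acid elongation enzyme Hsd17b12 (-0.33), the inner-membrane protein Apoo (-0.37) and Bpnt1 (-0.36). A probe set annotated to Myh1, a skeletal muscle myosin, fell by 0.82 (SE 0.12), while its 4 other tested probe sets lay between -0.24 and 0.11 and did not pass.

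Of 37 chaperones and genes of the unfolded protein response, 9 fell and 0 rose, around a median of -0.03. The falls were Dnaja1, Dnaja2 (-0.26), Dnajb9 (-0.40), Hspa4 (-0.41), the chaperonin subunits Cct3 (-0.41) and Cct8 (-0.38), and Canx, Pdia3 and Pdia6 of the endoplasmic reticulum (-0.17 to -0.26). The stress markers Ddit3 (-0.04), Hspa5 (-0.02) and Xbp1 (0.08) did not pass. Against the pair named MAS5, Dnaja1 alone was called lower and Hspb1 higher. Under the actin covariate 3 fell and 0 rose.

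Some ribosomal protein and respiratory chain genes were lower by small amounts, and the size depended on the control pair. Of 39 cytosolic ribosomal protein genes 11 fell and 1 rose, with a median of -0.14. Rpl24 was at 9.48, 10.16, 9.68 and 9.82 on the control arrays and at 9.17 to 9.50 with alcohol (difference -0.45, SE 0.10, adjusted p = 0.00411). Rps24 was at 10.82, 11.52, 10.83 and 10.75 on the controls and at 10.05 to 10.77 with alcohol (difference -0.44, SE 0.12, adjusted p = 0.0161). Rpl37a went the other way, by 0.54 (SE 0.11, adjusted p = 0.00252). Mean log2 level of the list was 11.04 on control naive replicate 2, 10.51 to 10.58 on the other controls and 10.33 to 10.60 with alcohol. The median was -0.01 with 0 genes lower against the pair named MAS5, and -0.30 with 23 lower against the other pair. In naive samples 9 fell and 1 rose (median -0.33), and in trained samples 0 fell and 2 rose (median 0.05). That contrast between the states was not tested for the list. The median was -0.03 with 0 lower under the actin covariate. Of 43 genes of translation initiation and elongation, 4 rose and 6 fell, with a median of -0.08, beside 9.17% and 8.98% of all genes.

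Of 70 tested genes of oxidative phosphorylation, 10 fell and 0 rose, with a median of -0.11. They included the complex I subunits Ndufb11 (-0.29, SE 0.06, adjusted p = 0.00289) and Ndufa2 (-0.47, SE 0.11, adjusted p = 0.00721) and the complex III subunit Uqcr11 (-0.31, adjusted p = 0.0137). Ndufa2 was at 9.17 on control naive replicate 2 and at 8.22 to 8.41 on the other controls, against 7.90 to 8.15 with alcohol. Against the pair named MAS5 the median was -0.04 with 0 genes lower, and against the other pair -0.20 with 27 lower. In naive samples 9 fell and 0 rose (median -0.18), and in trained samples 1 fell and 1 rose (median -0.05). Under the actin covariate 0 were called and the median was -0.07. For isocaloric minus control the median of this list was -0.23, and for alcohol minus isocaloric it was 0.13.

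The glucocorticoid receptor gene Nr3c1, through which corticosterone acts on hippocampal neurons, was at 7.29 and 7.63 on the control naive arrays and at 7.60 and 7.70 on the control trained arrays. Alcohol arrays lay at 6.98 to 7.25, below all of these, though by little for the lowest control (difference -0.42, SE 0.07, adjusted p = 0.00115). It was -0.36 (adjusted p = 0.0294) against the pair named MAS5 and -0.48 against the other pair. Of 16 tested genes of corticosteroid receptors and targets, 2 fell (Nr3c1 and Tsc22d3, the latter by 0.34, adjusted p = 0.0148) and Nfkbia rose by 0.76 (adjusted p = 0.00115). Over all genes 8.98% fell and 9.17% rose. The mineralocorticoid receptor Nr3c2 was at -0.02 (adjusted p = 0.903). Of 19 immediate early genes, Egr1 rose by 0.42 (adjusted p = 0.02) and Ptgs2 and Dusp6 fell by 0.37 and 0.20. Arc was at 0.28 (adjusted p = 0.122), and Fos did not pass the filter. None of these 3 calls held against the pair named MAS5. Bdnf was at -0.23 (adjusted p = 0.239), the growth cone protein Gap43 at 0.17 (adjusted p = 0.152) and the RNA-binding protein Elavl4, which stabilises its mRNA, at 0.01 (adjusted p = 0.943).

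Among enzymes of ethanol and aldehyde metabolism and antioxidant defence, 0 of 37 tested genes rose and 3 fell, beside 9.17% and 8.98% of all genes: the glutathione transferases Gsta1 (-0.43, adjusted p = 0.0131) and Gstm5 (-0.36, adjusted p = 0.0486) and the peroxiredoxin Prdx4 (-0.43, adjusted p = 0.0382). The aldehyde dehydrogenase Aldh2 was at -0.07, catalase (Cat) at 0.00 and superoxide dismutase Sod1 at -0.03, and none of these passed. Of 14 oligodendrocyte and myelin genes, Pdgfra (-0.43), Gpr37 (-0.33) and Cldn11 (-0.29) fell and 0 rose. Mbp was at 0.09 and Mog at -0.06. Of 22 astrocyte genes, Vim (0.61) and Id3 (0.47) rose and Aqp4 (-0.28) and Slc4a4 (-0.26) fell, with Gfap at 0.04 (adjusted p = 0.797). These 2 rises and 2 falls are near the shares of all genes, 9.17% and 8.98%. Of 14 microglial and complement genes, 0 rose and 1 fell. All calls given in this paragraph were lost against the control pair named MAS5, and also with the actin ratio as a covariate.

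**Figure D3:**
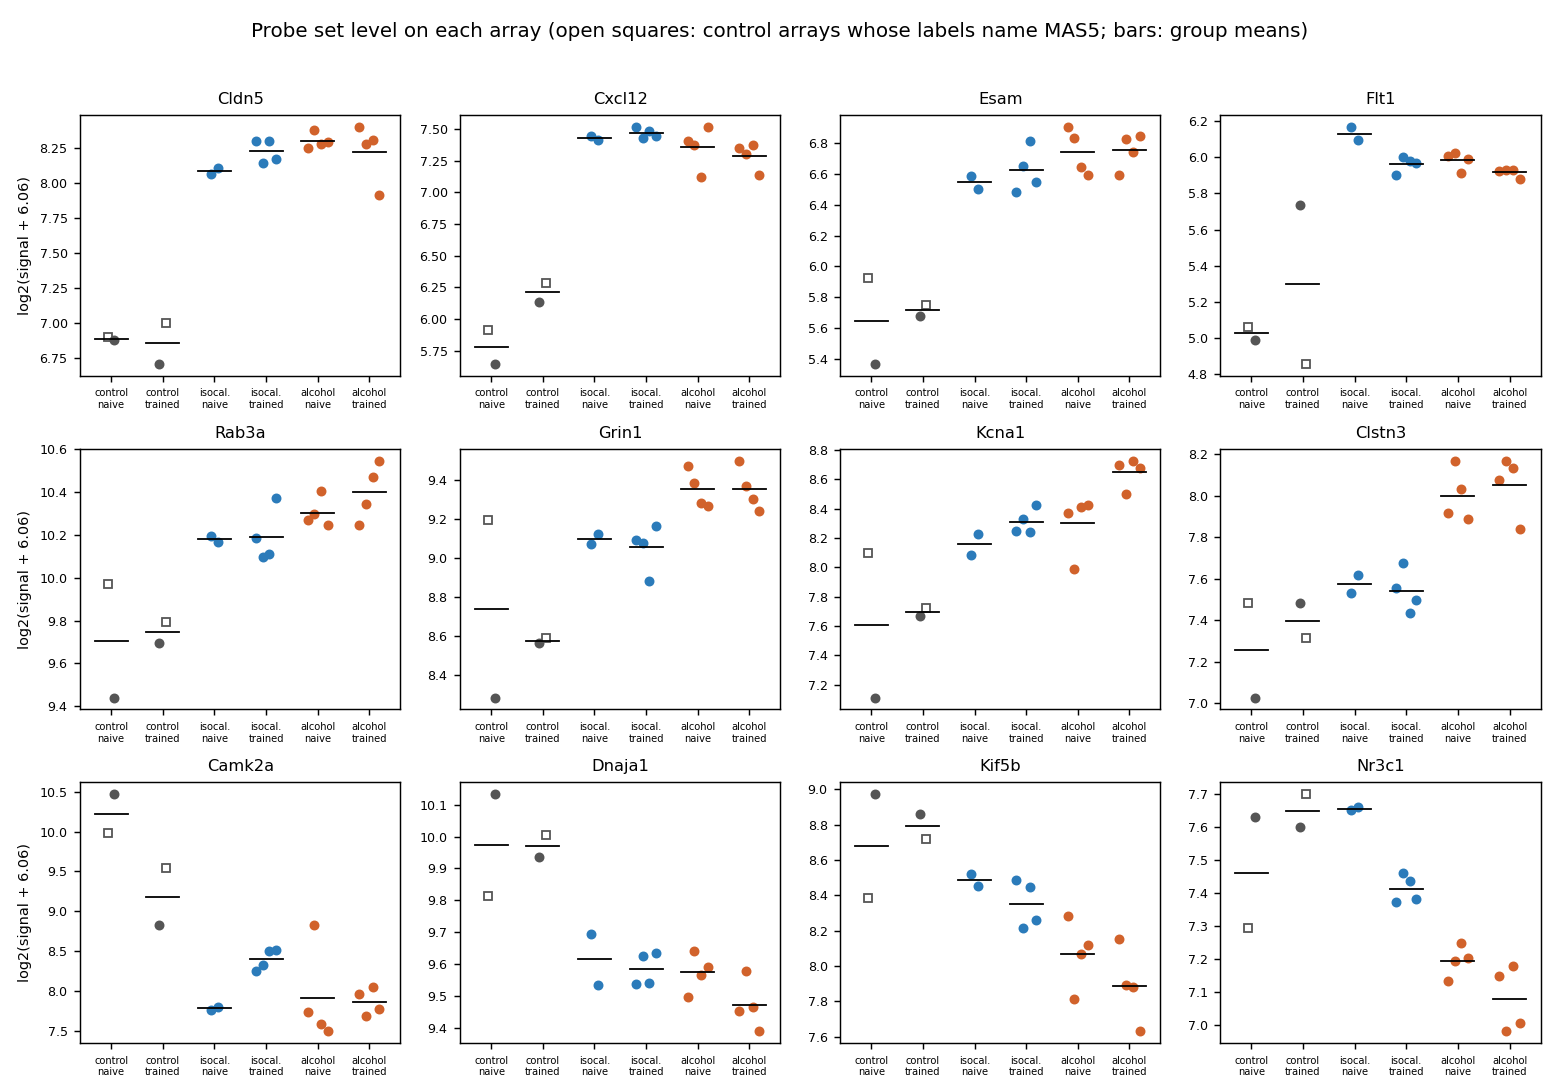
Log2 level of 12 genes on each array, by diet and training, with bars at group means and open squares at the control arrays for which processing notes name MAS5. Cldn5, Cxcl12 and Camk2a on the isocaloric arrays lie close to the alcohol arrays, while Nr3c1 with alcohol lies below both other diets.

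Isocaloric arrays are set beside these values, with the control arrays shared between both differences. Cldn5 was at 8.07 to 8.30 on the 6 isocaloric arrays, and isocaloric minus control was 1.29 (adjusted p = 7.36e-08) while alcohol minus isocaloric was 0.11 (adjusted p = 0.44). For Cxcl12 these were 1.45 and -0.13, for Gad1 1.07 and 0.09, for Esam 0.91 and 0.16, and for Flt1 0.89 and -0.10. For Scn2b they were 1.06 and 0.17. The brighter tested Camk2a probe set was lower by 1.82 with alcohol than with control (SE 0.19, adjusted p = 1.04e-05), with isocaloric minus control at -1.62 and alcohol minus isocaloric at -0.20 (adjusted p = 0.522).

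Other genes had their distance on the alcohol side. Ptms was at 9.39 to 9.95 on the isocaloric arrays, with isocaloric minus control at 0.09 (adjusted p = 0.67) and alcohol minus isocaloric at 0.81 (adjusted p = 0.000364). Nr3c1 was at 7.37 to 7.66 on the isocaloric arrays, with -0.02 (adjusted p = 0.905) and -0.40 (adjusted p = 0.00525). Eif4e, the cap-binding protein that starts translation, was lower than control by 0.51 (SE 0.09, adjusted p = 0.0013). Its isocaloric minus control was -0.00 (adjusted p = 0.998) and its alcohol minus isocaloric -0.51 (adjusted p = 0.00525). A brighter probe set of Eif4e was lower than control by 0.25 (adjusted p = 0.0326) with alcohol minus isocaloric at -0.06 (adjusted p = 0.636). Clstn3 stood between, with 0.23 and 0.47, and Kif5b with -0.32 and -0.44. The endothelial list had a median of 0.42 for isocaloric minus control and 0.03 for alcohol minus isocaloric. For the ribosomal list these medians were -0.30 and 0.14, and for oxidative phosphorylation -0.23 and 0.13. They were 0.14 and 0.04 for the synaptic vesicle list and 0.22 and 0.05 for synaptic adhesion. The calcium, sodium and HCN channel list had 0.23 and 0.05.

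In naive samples alone, 270 probe sets were higher with alcohol (2.84%) and 131 lower (1.38%). In trained samples 614 were higher (6.45%) and 528 lower (5.55%). The direction was the same in 135 probe sets called in both states and opposite in 3. Whether the diet difference depended on training was tested as an interaction in limma, which 3 of 9520 probe sets passed (0.0315%). An unadjusted p under 0.05 was found for 1245, where 5% of those tested is 476. Each state has 2 control arrays, and the counts moved with them: without control naive replicate 2 the naive count was 22, and without control trained replicate 1 the trained count was 170.

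The 3 interaction calls were Alkbh5, Kctd17 and Abhd17a. Alkbh5, an RNA demethylase that removes m6A marks, was at 7.28 and 7.02 on the control naive arrays and at 7.85 and 7.67 on the control trained arrays. With alcohol it was at 7.43, 7.46, 7.62 and 7.62 in naive and at 7.22, 7.24, 7.13 and 7.08 in trained samples. So this probe set was higher after training in controls and lower after training with alcohol, with no overlap in either diet (interaction -0.97, SE 0.16, adjusted p = 0.0351). Another Alkbh5 probe set did not show the rise in controls, at 6.89 and 6.62 (control naive) and 6.80 and 6.59 (control trained), and its interaction did not pass. Kctd17, an adaptor of a ubiquitin ligase, was at 8.31 and 8.34 (control naive), 7.76 and 7.92 (control trained), 8.04 to 8.21 (alcohol naive) and 8.38 to 8.53 (alcohol trained), an interaction of 0.78 (SE 0.13, adjusted p = 0.0471). Abhd17a, which removes palmitate from proteins of the postsynaptic density, was at 9.11 and 9.44 (control naive), 8.59 and 8.58 (control trained), 8.77 to 8.85 (alcohol naive) and 8.78 to 9.09 (alcohol trained), an interaction of 0.87 (SE 0.14, adjusted p = 0.0351). Without each of 6 alcohol arrays in turn, 0 probe sets passed.

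Some of the clearest differences in 1 state were small in the other, though their interaction did not pass. Srgn, the proteoglycan serglycin, was at 5.94 and 5.59 on the control naive arrays and at 6.60 and 6.70 on the control trained arrays. With alcohol it was at 6.91 to 7.32 in naive and at 6.51 to 7.04 in trained samples. The naive difference was 1.36 (SE 0.17, adjusted p = 0.000318) and the trained one 0.11 (adjusted p = 0.703), with an interaction adjusted p of 0.0574. Rpl13a was at 10.78 and 11.46 on the control naive arrays and at 10.14 to 10.31 on all other alcohol and control arrays, a naive difference of -0.87 (SE 0.13, adjusted p = 0.00128). Eif1a, a factor of translation initiation, was lower by 1.20 in trained samples (SE 0.17, adjusted p = 0.000688) and differed by -0.16 in naive ones (adjusted p = 0.637), with an interaction adjusted p of 0.107. Pik3r2 rose by 0.46 in naive and by 1.20 in trained samples, with an interaction adjusted p of 0.0654.

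**Figure D4:**
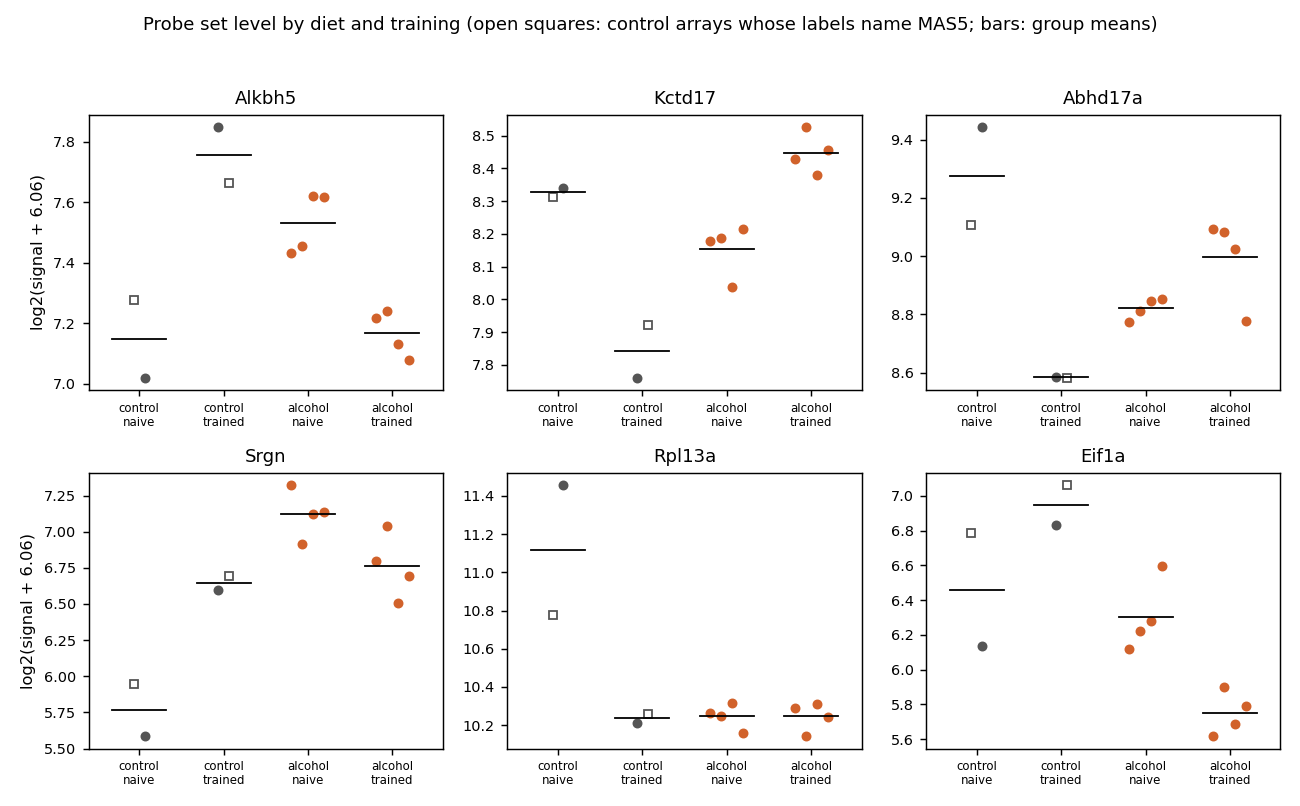
Log2 level of 6 genes on each control and alcohol array by training state, with bars at group means and open squares at the control arrays for which processing notes name MAS5. Alkbh5, Kctd17 and Abhd17a passed the interaction test, while Srgn, Rpl13a and Eif1a did not. On the Alkbh5 probe set shown, the trained arrays lie above the naive ones with the control diet and below them with the alcohol diet.

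Probe sets of the same gene often differed. Of 942 genes with several tested probe sets, 464 had at least 1 call, 57 had all of them called in the same direction, and 14 had calls in opposite directions. In a further 157 genes an uncalled probe set had the opposite sign to the called one. Camk2a, the kinase of the postsynaptic density, fell on the probe set above and rose by 0.95 (adjusted p = 0.0146) on another. Mapt, the microtubule protein tau, fell by 0.56 on 1 probe set and rose by 0.26 on another. Cnr1, the cannabinoid receptor, was at -0.22 and 0.39, Canx at -0.17 and 0.56, Rtn3 at -0.29 and 0.34, and Akt1 at -0.35 and 0.43, each called both ways. Zbtb18, a repressor needed for cortical neuron development, was at 0.75 and -0.34. Among the genes called above, other probe sets of opposite sign were found for Aqp4 (0.15 and 0.26), Slc4a4 (0.29), Cldn11 (0.24), Cacna1a (-0.30), Mcam (-0.02), Cdh2 (-0.02), Cxcl12 (-0.01), Dlg1 (0.05) and Dusp6 (0.02). For these genes the data give a difference per probe set and no direction for the gene.

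**Figure D5:**
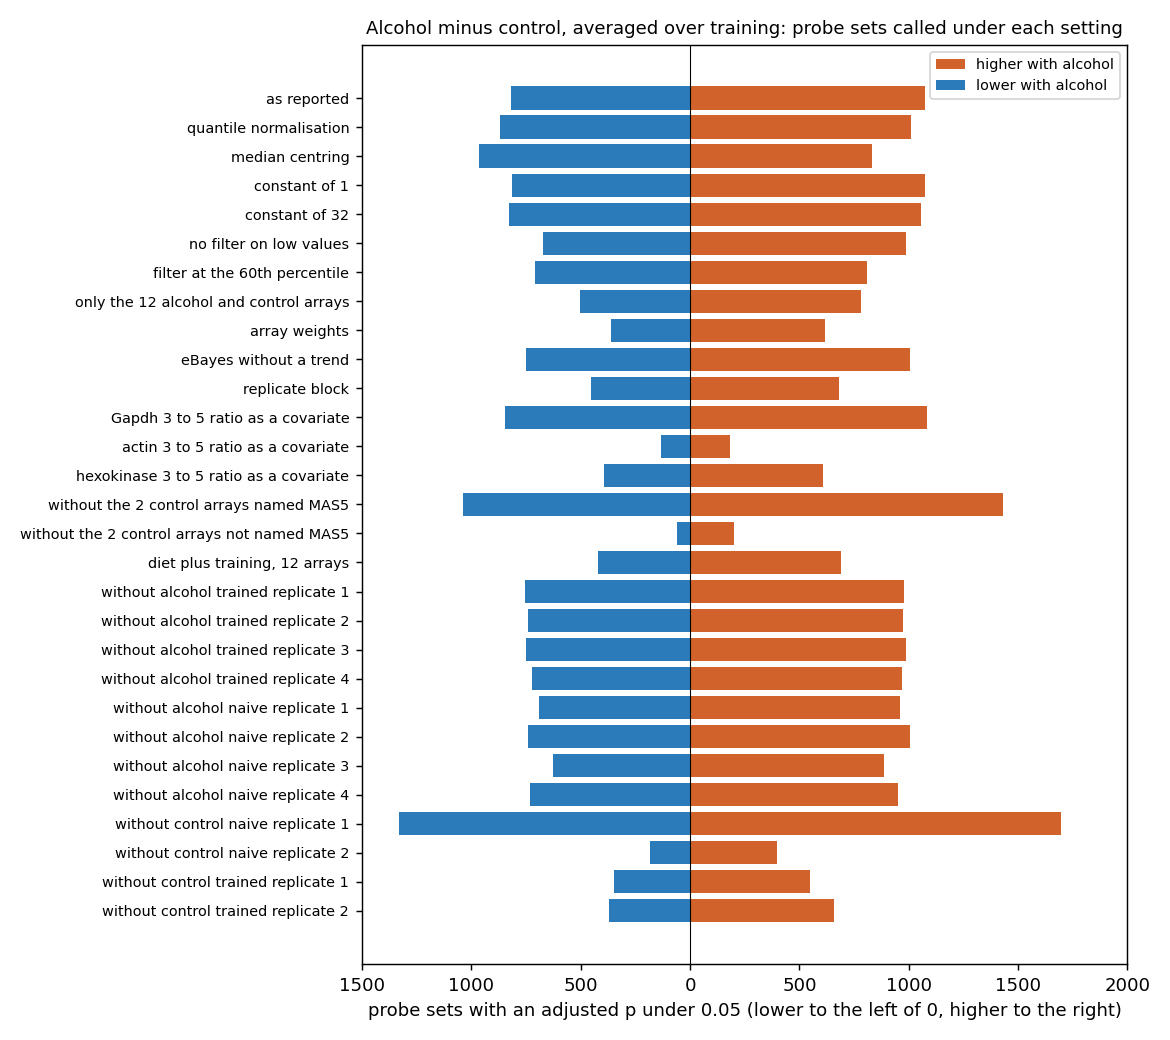
Probe sets with an adjusted p under 0.05 in the averaged comparison under each setting, lower with alcohol to the left of 0 and higher to the right. Counts fell to 315 with the actin ratio as a covariate, to 263 without the 2 control arrays not named MAS5 and to 580 without control naive replicate 2.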

How the data were processed

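The authors deposited 1 linear intensity per probe set and array, for 18 arrays. For 2 samples the submitters' processing notes name MAS5. For the others the algorithm was not given in the sources used here. The mean after trimming 2% at each end was 150 on every array, so a change of total RNA cannot be seen. Total signal was 2.92e+06 to 3.13e+06 per array, and the number of arrays limits precision. Of 15923 probe sets, 57 Affymetrix controls were left out, as were those with a mean under the 40th percentile, and 9520 were tested on log2(intensity + 6.06), the constant being the 10th percentile of values. Differences of dim probe sets are therefore understated. The filter's mean was taken over all 18 arrays, so a probe set under the cut on every control array could still be tested. limma 3.58.1 (R 4.3.3) fitted the means of 6 diet by training groups over 18 arrays, with eBayes and a trend. Tests were two-sided with Benjamini-Hochberg adjustment. The averaged difference is the mean of the naive and trained differences. The script recovered known changes when tested on simulated data. Array measures used exact permutation tests (scipy 1.17.1). Other software was Python 3.11.15, numpy 2.4.6, pandas 2.3.3 and, for plots, matplotlib 3.10.9.

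Symbols came from the platform annotation: 12789 probe sets had 1 symbol, 312 several and 2822 none, and 12754 matched a RefSeq gene by ID. Lists used the probe set with the highest mean per gene. Named genes were, past the threshold, the 15 higher and 15 lower with the smallest p and no overlap of arrays, the 5 of each direction per training state and for the interaction, up to 6 members of each list in each direction plus 2 that did not pass, and a few genes by name. Where fewer passed, up to 3 that did not were added. Placeholder symbols were not named. Some other list members are named from their list. The comparison and the lists were chosen with earlier results of these data known. Alternatives were another scaling, constant, filter, fit or set of arrays, and the 3′ to 5′ ratios of actin and hexokinase as covariates were added after seeing the data.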

Additional observations from a re-analysis of the deposited data

Results flagged for a closer look

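In some groups of 4 arrays 1 array lay far from the other 3. Of 186 groups examined, 8 were so (4.3%, where chance gives about 5%). Alcohol naive replicate 2 was the array in 4 of them: Agap3 at 6.26 (others 6.84 to 6.94), Arf3 at 9.05 (9.46 to 9.54), Grin2b at 5.97 (6.43 to 6.52) and Gap43 at 9.96 (9.76 to 9.80). That array also had a high Ttr level of 12.67. Zbtb18 was at 10 on alcohol naive replicate 3 (others 9.81 to 9.83). A Myh1 probe set was at 9.83 on alcohol trained replicate 2 (others 9.51 to 9.56). Among the controls, Bpnt1 was at 8.25 on naive replicate 1 (others 8.43 to 8.47) and Gria1 at 7.42 on naive replicate 2 (others 8.04 to 8.12).

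The diet difference itself differed between trained and naive samples on 3 probe sets, of Alkbh5 (-0.97), Kctd17 (0.78) and Abhd17a (0.87), as trained minus naive.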

How the results depend on the processing

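Of 233 named probe sets called in the averaged comparison, 45 kept their call under every alternative that tested them, and 0 changed sign. There were 28 alternatives, and some dim probe sets, such as those of Esam and Flt1, were tested under 27. Of the 233 calls, 166 were lost with the actin ratio as a covariate and 166 without the control arrays not named MAS5. The averaged count of 1895 was 979 with array weights, 315 and 1002 with the actin and hexokinase ratios, 1110 with diet plus training on 12 arrays, and 263 and 2465 without the control arrays not named and named MAS5. The naive count of 401 was 199 without a filter, 120 on the 12 arrays alone, 11 with array weights, 219 without a trend, 13 and 215 with the actin and hexokinase ratios, and 18 and 2147 without those control pairs. The trained count of 1142 was 640 on the 12 arrays, 1846 with array weights, 735 with the Gapdh ratio, and 481 and 600 without those pairs. The interaction count of 3 was 13 with the 60th percentile filter, 0 on the 12 arrays, with array weights or without a trend, 1 with the actin ratio, and 5 and 210 without those pairs. Leaving out each array in turn gave 580 (without control naive replicate 2) to 3024 (without control naive replicate 1) averaged, 22 to 2218 naive, 170 to 1665 trained and 0 to 496 interaction calls. Causes were not tested. Same-numbered samples did not deviate together (correlations -0.228 to 0.122), so replicate numbers do not pair them, and the replicate block gave 1138 averaged, 133 naive, 765 trained and 0 interaction calls. Under either other constant, quantile normalisation or median centring, all 4 counts stayed within 1.5 times. With quantile normalisation 2 chaperone genes were called higher, and 1 calcium, sodium or HCN channel gene lower there and with median centring.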
